A study of Mus musculus with 204 samples.

Results

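The somatostatin, tachykinin and bradykinin receptors were followed as the 10 gene rows Sstr1, Sstr2, Sstr3, Sstr4, Sstr5, Tacr1, Tacr2, Tacr3, Bdkrb1 and Bdkrb2, chosen by name out of 49492 gene rows. The cells came from the muscle layers of the distal colon, with the myenteric plexus between them, of VGLUT2-tdTomato mice, a line in which the red protein tdTomato reports Slc17a6, the gene of the vesicular glutamate transporter VGLUT2. The tissue was dissociated, the cells were kept in culture overnight, and red cells were picked by hand under a microscope, 1 cell per tube, so every level below was measured after a night in culture. Cells of 3 plates were sequenced, with 66, 66 and 72 cells on plates 1, 2 and 3, all of the same reporter genotype and with no treatment; the labels give no age, animal or culture. Each plate was therefore taken as 1 sample and its cells were not taken as replicates, so no test was run and no p-value is given. The deposited columns of plates 2 and 3 share the mark P2, and those of plate 1 bear P1. How far plates 2 and 3 are separate repeats is not given.

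Somatostatin receptors bind somatostatin and cortistatin, couple to inhibitory Gi/o proteins, and in many neurons open potassium channels and close calcium channels. Tachykinin receptors couple to Gq/11 proteins and bind substance P and neurokinin A, made from Tac1, and neurokinin B, made from Tac2; in the gut, excitatory motor neurons release tachykinins onto muscle and onto other neurons. Bradykinin receptors also couple to Gq/11 proteins: Bdkrb2 binds intact bradykinin and is present in many resting tissues, whereas Bdkrb1 binds kinins that a carboxypeptidase has trimmed and is known for its induction in injured or inflamed tissue.

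Levels are given in CPM, reads per 1000000 reads of the cell, and a transcript counted as detected in a cell at 10 CPM or more. The cells held between 453035 and 14310625 reads, and the plate medians were 3445516, 4571355 and 4690975 reads on plates 1, 2 and 3. The labels call all cells neurons. By the measure used here, at least 50% of 13 pan-neuronal transcripts such as Uchl1 and Gap43, 75.5% of the cells were neuronal (54, 45 and 55 on plates 1, 2 and 3) and the other 50 cells were not (12, 21 and 17). Neuronal cells carried a median of 13 of these markers and the other cells a median of 2.5. Slc17a6 was detected in 89 neuronal cells and in 0 of the 50 other cells. RNA of smooth muscle, read from 8 genes such as Tagln and Acta2, was at the list threshold in 37 neuronal cells (24.0%) and in 32 of 50 other cells (64%), with median summed levels of 46.2 and 749 CPM. Intervals are exact Clopper-Pearson 95% intervals. With no molecular identifiers they cover counting error only. The limits given for a share with a count of 0 are not these intervals but 3 divided by the number of cells.

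In neuronal cells the receptors differed widely in level. Compared per length of transcript, in RPKM, Bdkrb2 had the highest mean level at 39.9 RPKM, followed by Sstr2 at 15.4 RPKM, Sstr5 at 7.21 RPKM, Sstr1 at 4.44 RPKM and Bdkrb1 at 3.74 RPKM. Sstr4 averaged 1.78 RPKM, Sstr3 0.902 RPKM and Tacr1 0.334 RPKM in neuronal cells. Tacr3 and Tacr2, at 0.0117 and 0.00857 RPKM, were close to 0. The spread across cells was larger than the mean for every one of the 10 receptors, and for 9 of them most neuronal cells held no reads while a few held many; the order of neighbours such as Sstr1 and Bdkrb1 is therefore not separated by the spread. The median neuronal cell was at 0 CPM for 9 of the 10 receptors and at 34.1 CPM for Bdkrb2.

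**Figure D1:**
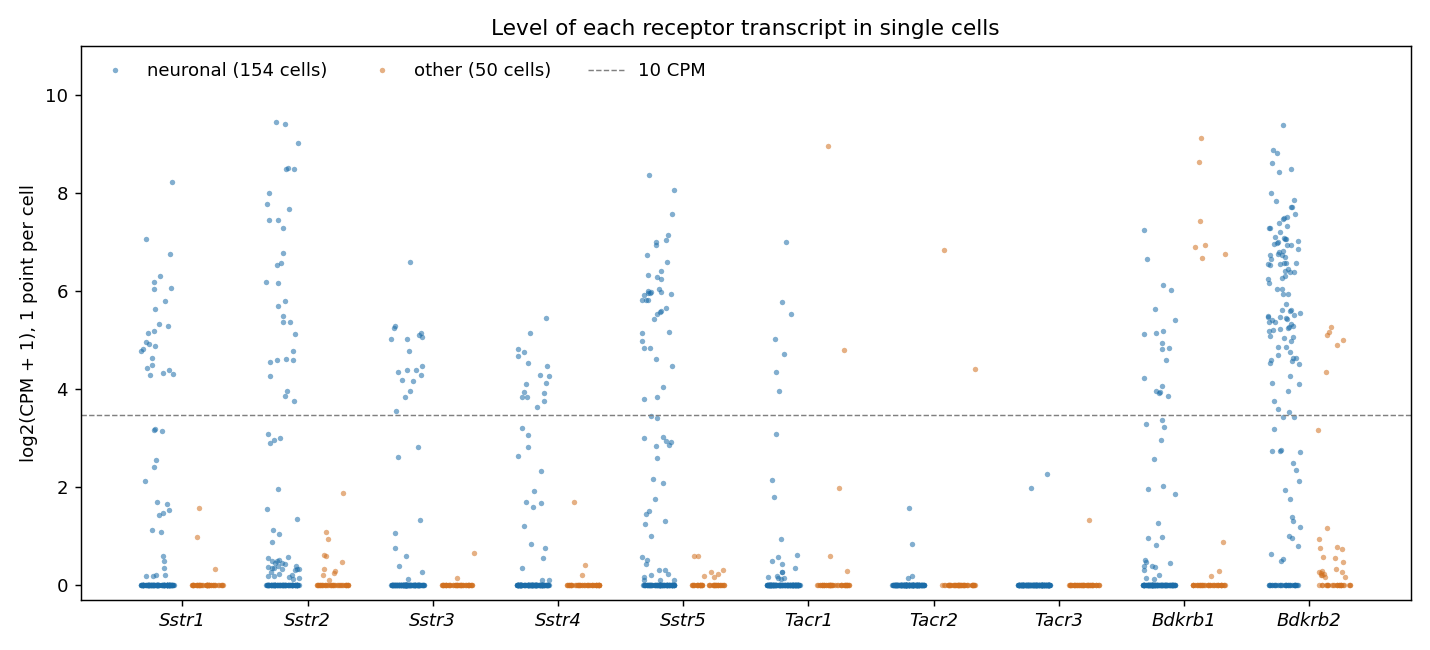
Level of each receptor as log2(CPM + 1) on the vertical axis, with 1 point per cell, neuronal cells in blue on the left of each pair and other cells (50) in orange on the right; the dashed line marks 10 CPM. The 5 somatostatin receptors reach the line only in neuronal cells, Bdkrb2 does so in 98 neuronal and 6 other cells, and the highest Bdkrb1, Tacr1 and Tacr2 values belong to other cells.

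All 5 somatostatin receptor transcripts were found, and all of them in neuronal cells. At least 1 of the 5 was detected in 85 neuronal cells (55.2%, 95% interval 47.0 to 63.2%) and in 0 of 50 other cells, where a count of 0 allows a share of up to 6%. Plates 1, 2 and 3 had any of them in 57.4%, 51.1% and 56.4% of their neuronal cells.

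Sstr5, whose product favours the long form of somatostatin, was detected in 39 neuronal cells (25.3%, interval 18.7 to 33.0%), in 17 of 54, 9 of 45 and 13 of 55 on plates 1, 2 and 3. Its level in those cells ran between 12.9 and 330.2 CPM with a median of 60.5 CPM. In the other cells Sstr5 was at most 0.505 CPM. Most neuronal cells also lay below 10 CPM of Sstr5.

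Sstr2, the receptor that octreotide-type drugs bind best, was detected in 32 neuronal cells (20.8%, interval 14.7 to 28.0%), in 11, 7 and 14 cells on plates 1, 2 and 3. Its level in those cells ran between 12.4 and 699.8 CPM with a median of 71.1 CPM, and no other somatostatin receptor reached such a level in a single cell. The 3 highest Sstr2 cells, at 699.8, 678.5 and 520.8 CPM, were all on plate 3, were all Nos1-positive and all lacked Slc17a6. The other cells held at most 2.67 CPM of Sstr2.

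Sstr1 was detected in 25 neuronal cells (16.2%, interval 10.8 to 23.0%), with 7, 9 and 9 cells on plates 1, 2 and 3, and with levels between 18.5 and 298 CPM in those cells. Sstr3, a receptor that in other neurons sits on the primary cilium, was detected in 19 neuronal cells (12.3%, interval 7.59 to 18.6%), with 7, 8 and 4 cells on the 3 plates and at most 95.1 CPM. Sstr4 was detected in 17 neuronal cells (11.0%, interval 6.56 to 17.1%), with 11, 2 and 4 cells on the 3 plates, and reached at most 42.7 CPM. Both were thus low even in the cells that carried them, with medians of 21.1 CPM for Sstr3 and 18.3 CPM for Sstr4 in positive cells.

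Tachykinin receptors were rare among the picked cells. Tacr1, which prefers substance P, was detected in 7 neuronal cells (4.55%, interval 1.85 to 9.14%) and in 2 of 50 other cells (4%, interval 0.488 to 13.7%). The 7 neuronal cells were cell 41 of plate 3 at 126.5 CPM, cell 53 of plate 3 at 53.9 CPM, cell 19 of plate 1 at 45.4 CPM, cell 29 of plate 1 at 31.6 CPM, cell 70 of plate 3 at 25.3 CPM, cell 35 of plate 2 at 19.5 CPM and cell 45 of plate 2 at 14.6 CPM. Of these, 5 also carried Nos1, the enzyme that makes nitric oxide, 3 of them with Chat and 2 without it. Nos1 was detected in 51.9% of all neuronal cells. The highest Tacr1 value of the series, 496 CPM, was in a cell without the neuronal list, cell 36 of plate 2, which carried the smooth muscle and fibroblast lists.

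Tacr2, the receptor that prefers neurokinin A and is known from gut smooth muscle, was detected in none of the neuronal cells, and a count of 0 among them allows up to 1.95%, and in 2 of 50 other cells. Those were cell 10 of plate 3 at 113.1 CPM, with 0 of 13 neuronal markers, and cell 51 of plate 2 at 20.1 CPM; both carried the smooth muscle and fibroblast lists. Tacr3, which prefers neurokinin B, was detected in none of the cells of either class, where a count of 0 allows up to 1.47%. Its reads lay in 3 cells, all on plate 1: cell 36 at 3.81 CPM, cell 16 at 2.96 CPM and cell 30 at 1.504 CPM.

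Bdkrb2 was the most widespread member. It was detected in 98 neuronal cells (63.6%, interval 55.5 to 71.2%) and in 6 of 50 other cells (12%, interval 4.53 to 24.3%). By plate it was detected in 42 of 54 (77.8%), 28 of 45 (62.2%) and 28 of 55 (50.9%) neuronal cells, against 4 of 12, 2 of 21 and 0 of 17 other cells. The mean level was 67.0 CPM in neuronal cells and 4.01 CPM in other cells, and the highest cells reached 673 and 37.6 CPM. Every plate had a higher share in neuronal cells, and the share among neuronal cells was highest on plate 1.

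Bdkrb1 had a different distribution. It was detected in 19 neuronal cells (12.3%, interval 7.59 to 18.6%) and in 7 of 50 other cells (14%, interval 5.82 to 26.7%), and its mean level was 5.36 CPM in neuronal cells and 31.5 CPM in other cells. The 19 neuronal cells held between 13.4 and 151 CPM. The 7 other cells were 2 cells of plate 1, at 559 and 171 CPM, 4 cells of plate 2, at 395.8 CPM and from there down to 107.1 CPM, and a cell of plate 3 at 100.7 CPM. Positive cells without the neuronal list thus all held over 100 CPM, a level that 1 neuronal cell passed, cell 18 of plate 1, which carried the smooth muscle, glial and fibroblast lists.

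Neuronal cells were compared with the other cells plate by plate, as the log2 of the ratio of their mean CPM after 1 CPM was added to each mean. A gene was called where the ratio was at least 1 in size, that is 2-fold, with the same sign on every plate with 5 or more cells of both classes. Of 16081 genes that reached 10 CPM in at least 10 of the cells, 17.2% were called higher and 4.86% lower in neuronal cells. Of the 10 receptors, 7 passed this filter; Tacr1, Tacr2 and Tacr3 did not. Of those 7, 6 were called higher in neuronal cells, namely all 5 somatostatin receptors and Bdkrb2, and none was called lower. The somatostatin receptors were detected in 0 of 50 other cells, so all 5 passed the filter through neuronal cells alone, which left little room for a lower call. The filter keeps mainly genes that some class carries well, so the count describes these members and is not set against other lists.

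Over plates 1, 2 and 3 the log2 ratios of neuronal to other cells were 4.46, 3.20 and 4.70 for Sstr5, and 3.12, 4.03 and 5.81 for Sstr2. They were 2.67, 3.74 and 3.23 for Sstr1 and 3.07, 3.89 and 5.21 for Bdkrb2. The lower-level receptors had smaller ratios, 1.94, 2.90 and 1.38 for Sstr3 and 2.24, 1.16 and 1.28 for Sstr4. Over all tested genes the median ratios were 0.28, 0.33 and 0.54. Where the other cells of a plate held no read at all, the ratio understates the difference: set against the 3 reads that a count of 0 allows, Sstr3 was at least 246-fold higher on plate 2 and at least 24.4-fold higher on plate 3, Sstr1 at least 77.6-fold higher on plate 1, and Sstr4 at least 21.6-fold higher on plate 3. These bounds, and those given below, count reads and not cells. They cover no spread between cells, and a single positive cell in the class without reads could lower them much. Without 1 cell, the highest of its plate, the Sstr1 bound was 49.9-fold and the Sstr3 bound on plate 3 was 16.0-fold. The Sstr4 call ended without cell 30 of plate 2, where the ratio was then 0.78. Without plate 1 the other plates kept the fold for Sstr4, but only 6 of their cells reached 10 CPM, under the filter of 10 cells. Median genes with any read per cell were 12657 in neuronal and 10320 in other cells. The part of this difference in the receptor ratios was not tested. Thinning each cell to 450000 reads left the same 6 receptors called.

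**Figure D2:**
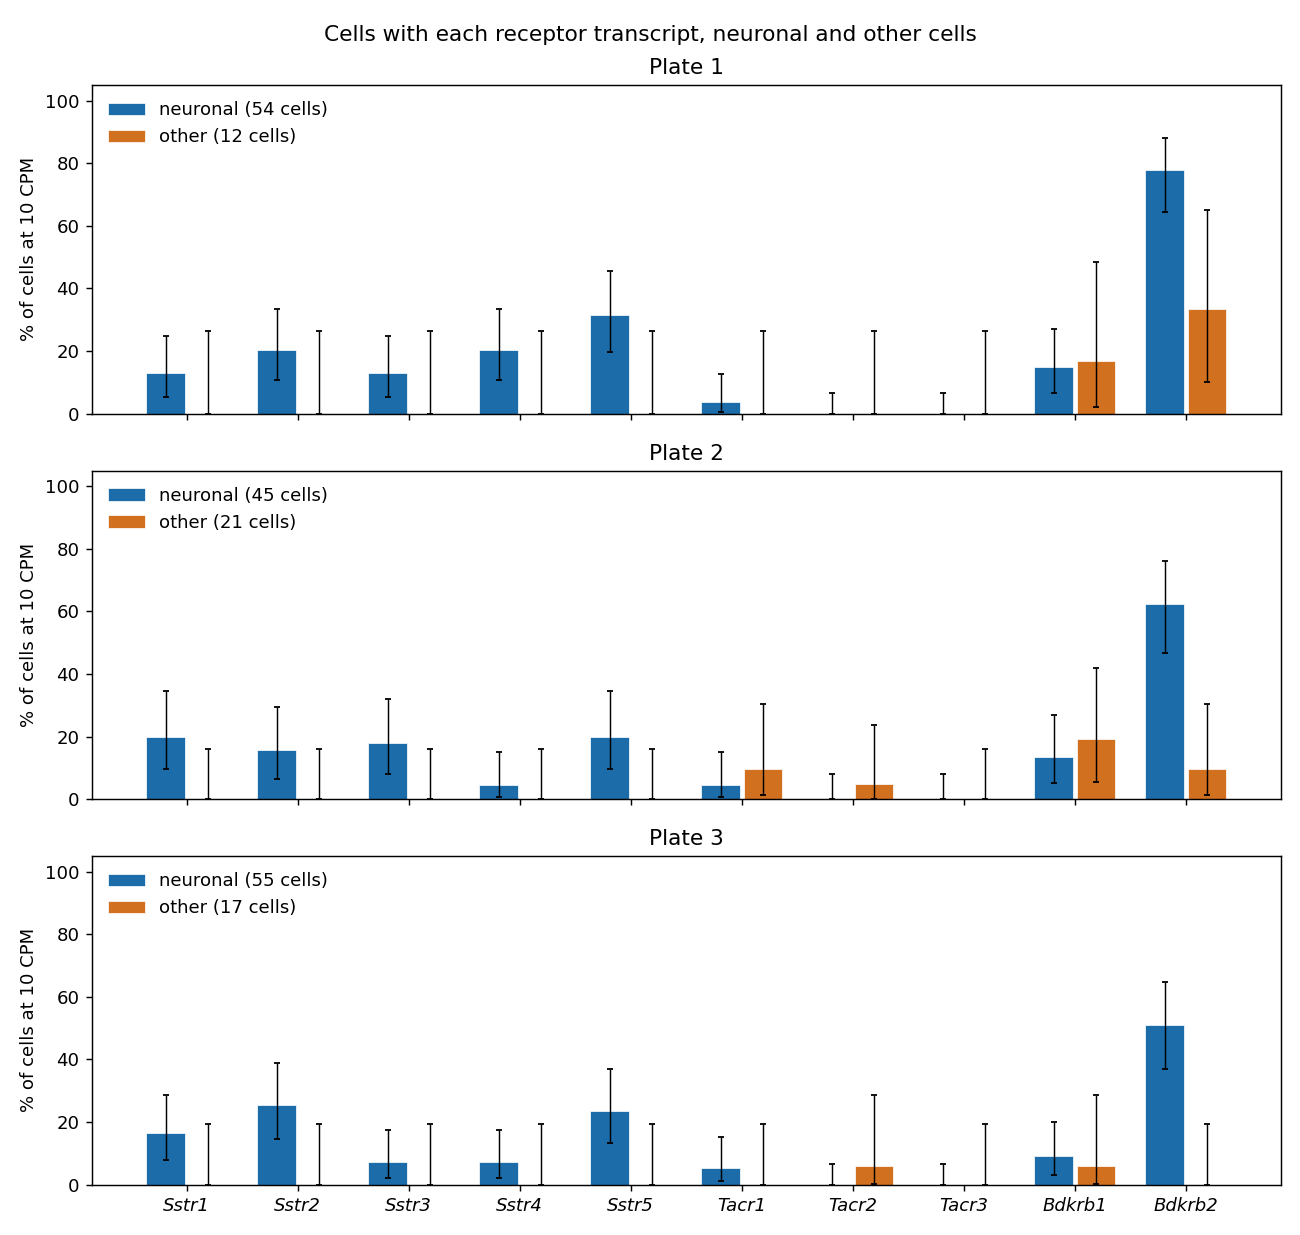
Share of cells with each receptor at 10 CPM, in %, by plate from top to bottom, for neuronal cells (blue, left) and other cells (orange, right); lines are exact 95% intervals for counting error. Bdkrb2 stands highest in neuronal cells of all 3 plates, at 77.8%, 62.2% and 50.9%, and the somatostatin receptor bars of other cells are at 0 on every plate.

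Bdkrb1 was not called: its log2 ratios of neuronal to other cells were -2.83, -2.72 and -0.55 on plates 1, 2 and 3, and leaving out each plate's highest cell gave -0.92, -1.73 and 2.25. It was called lower in neuronal cells without plate 3, and also among cells with at least 2000000 reads. In these settings 7.00% and 5.21% of all tested genes were called lower. Tacr1 turned on 1 cell: its plate 2 ratio was -3.70 with cell 36 and -0.25 without it.

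Smooth muscle RNA was carried by some cells of both classes, so the receptors were also read by that list within each class. Among neuronal cells, 1.6% of 15180 genes were called higher and 1.47% lower in cells with the list than in cells without it. Of 7 receptors that passed the filter, 1 was called, Sstr4, which was lower. It was detected in 1 of 37 cells with the list (2.70%) and 16 without it (13.7%). Its log2 ratios were -1.72, -1.50 and -1.47 on plates 1, 2 and 3. Sstr4 passed the filter almost only through cells without the list, which left little room for a higher call. The fold held on every plate once each plate's highest cell was left out. Without plate 1, Sstr4 kept the fold but fell under the filter, with 6 cells at 10 CPM. Sstr1 and Sstr2 were then called lower, as were 6.88% of all tested genes. Without cell 30 of plate 2 the Sstr1 ratio there was -0.59, and without cell 41 of plate 3 the Sstr2 ratio there was -0.98. Without plate 3, Sstr5 and Bdkrb2 were called lower beside Sstr4, as were 2.77% of all tested genes. Without cell 4 of plate 1 the Bdkrb2 ratio there was -0.84. Sstr5 was detected in 4 of 37 neuronal cells with the list (10.8%) and in 35 without it (29.9%), and Bdkrb2 in 20 of 37 (54.1%) and in 78 without it (66.7%). Bdkrb1 was detected in 7 of 37 neuronal cells with the list (18.9%) and in 12 without it (10.3%), with log2 ratios of 2.29, 0.29 and 0.63. All 7 lists of other cell types were at their threshold more often in neuronal cells with the smooth muscle list than in those without it. The shares were 35.1% and 2.56% for fibroblasts, 24.3% and 3.42% for epithelium, 18.9% and 0% for mesothelium, 16.2% and 4.27% for interstitial cells of Cajal, 13.5% and 2.56% for enteric glia, 10.8% and 2.56% for endothelium and 10.8% and 0.855% for leukocytes. Their part in the receptor ratios was not tested. The median ratio of all tested genes was -0.12, -0.30 and -0.50 on plates 1, 2 and 3.

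Among the 50 other cells, Bdkrb1 was confined to cells that carried the smooth muscle list: 7 of 32 with it (21.9%, interval 9.28 to 40.0%) and 0 of 18 without it. Its mean levels were 49.1 and 0.0662 CPM. Both plates with enough cells showed the same direction, with log2 ratios of 5.66 on plate 2 and 3.47 on plate 3, where cells without the list had no reads and the ratio was at least 63.9-fold; on plate 3 it rested on cell 20 alone. No receptor reached 10 CPM in 10 of these cells, so none was eligible for a call; of 8834 genes that were, 5.42% were called higher and 6.17% lower. Tacr1 and Tacr2 were each detected in 2 of 32 other cells with the list and in 0 of 18 without it. Which cell type the Bdkrb1 reads came from was not tested.

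Neuronal cells were next split by Slc17a6, the gene that the reporter marks. Slc17a6 was detected in 44, 20 and 25 and not detected in 10, 25 and 30 neuronal cells on plates 1, 2 and 3. Of 15180 genes tested, 1.53% were called higher and 0.922% lower in Slc17a6-positive cells. Of 7 receptors that passed the filter, 1 was called, Sstr5, which was higher. Sstr5 passed the filter almost only through Slc17a6-positive cells, which left little room for a lower call.

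Sstr5 was detected in 37 of 89 Slc17a6-positive neuronal cells (41.6%, interval 31.2 to 52.5%) and in 2 of 65 Slc17a6-negative ones (3.08%, interval 0.375 to 10.7%). By plate it was found in 17 of 44, 8 of 20 and 12 of 25 positive cells, against 0 of 10, 1 of 25 and 1 of 30 negative cells. Mean levels were 27.6, 16.6 and 55.1 CPM in positive cells and 0.730, 1.74 and 1.93 CPM in negative cells of plates 1, 2 and 3. The log2 ratios were 4.05, 2.68 and 4.26, and 3.85, 2.46 and 3.93 once each plate's highest cell was left out, beside medians of 0.12, 0.07 and 0.18 over all tested genes. Sstr5 was called in every alternative setting in which this comparison was run. Most Slc17a6-positive cells of all 3 plates nevertheless lay below 10 CPM of Sstr5.

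Bdkrb2 was detected in 70 of 89 Slc17a6-positive cells (78.7%, interval 68.7 to 86.6%) and in 28 of 65 negative cells (43.1%, interval 30.8 to 56.0%), with mean levels of 94.7 and 29.1 CPM. By plate it was found in 36 of 44, 14 of 20 and 20 of 25 positive cells, against 6 of 10, 14 of 25 and 8 of 30 negative cells. Its log2 ratios were 2.51, 0.79 and 1.80, so plate 2 kept it from a call; that plate held cell 44, a Slc17a6-negative cell with 467 CPM, and stood at 1.47 without it. Sstr3 was detected in 16 of 89 positive cells (18.0%) and 3 of 65 negative cells (4.62%). Its log2 ratios were 2.25, 0.27 and 2.18, and plate 2 stood at 1.41 without cell 50, a negative cell with 95.1 CPM. Without plate 2, and once each plate's highest cell was left out, Sstr3 and Bdkrb2 were called higher beside Sstr5. The shares of all tested genes called higher in these settings were 4.14% and 1.61%.

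Sstr1 and Sstr2 lay the other way on 2 of the 3 plates. Sstr1 was detected in 8 of 89 Slc17a6-positive cells (8.99%) and in 17 of 65 negative cells (26.2%, interval 16.0 to 38.5%), with log2 ratios of 0.82, -3.23 and -3.16 on plates 1, 2 and 3. Sstr2 was detected in 18 of 89 positive cells (20.2%) and 14 of 65 negative cells (21.5%), with mean levels of 15.7 and 56.5 CPM and log2 ratios of 1.88, -1.53 and -1.66. The Sstr2 cells lay on different plates: 11 of the 18 Slc17a6-positive ones were on plate 1 and 10 of the 14 negative ones on plate 3, the plate with the highest Sstr2 levels. On plate 3 their median levels were 198.9 CPM in the 4 positive and 228.7 CPM in the 10 negative cells. Without plate 1, which held 10 negative cells, Sstr1 and Sstr2 were called lower in positive cells, as were 2.17% of all tested genes. Without cell 50 of plate 2 the Sstr2 ratio there was -0.92, which ended its call. Sstr4 was detected in 12 of 89 and 5 of 65 cells and Bdkrb1 in 14 of 89 and 5 of 65 cells, and neither kept 1 direction over the plates. Tacr1 was detected in 3 of 89 and 4 of 65 cells.

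Cells with RNA of another cell type were then left out. Of the neuronal cells with no such list, 66 were Slc17a6-positive and 38 negative, and the comparison could be made on plates 2 and 3. Sstr5 was detected in 32 of 66 positive and 2 of 38 negative cells, and Bdkrb2 in 53 of 66 (80.3%) and 19 of 38 (50%). Sstr1 was detected in 6 of 66 positive and 15 of 38 negative cells, and Sstr2 in 12 of 66 and 14 of 38. On these 2 plates Sstr5 and Bdkrb2 were called higher and Sstr1 and Sstr2 lower in Slc17a6-positive cells. Of all genes tested there, 3.37% were called higher and 2.26% lower. Before these cells were left out, 18 of 89 positive cells (20.2%) and 19 of 65 negative cells (29.2%) held the smooth muscle list.

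**Figure D3:**
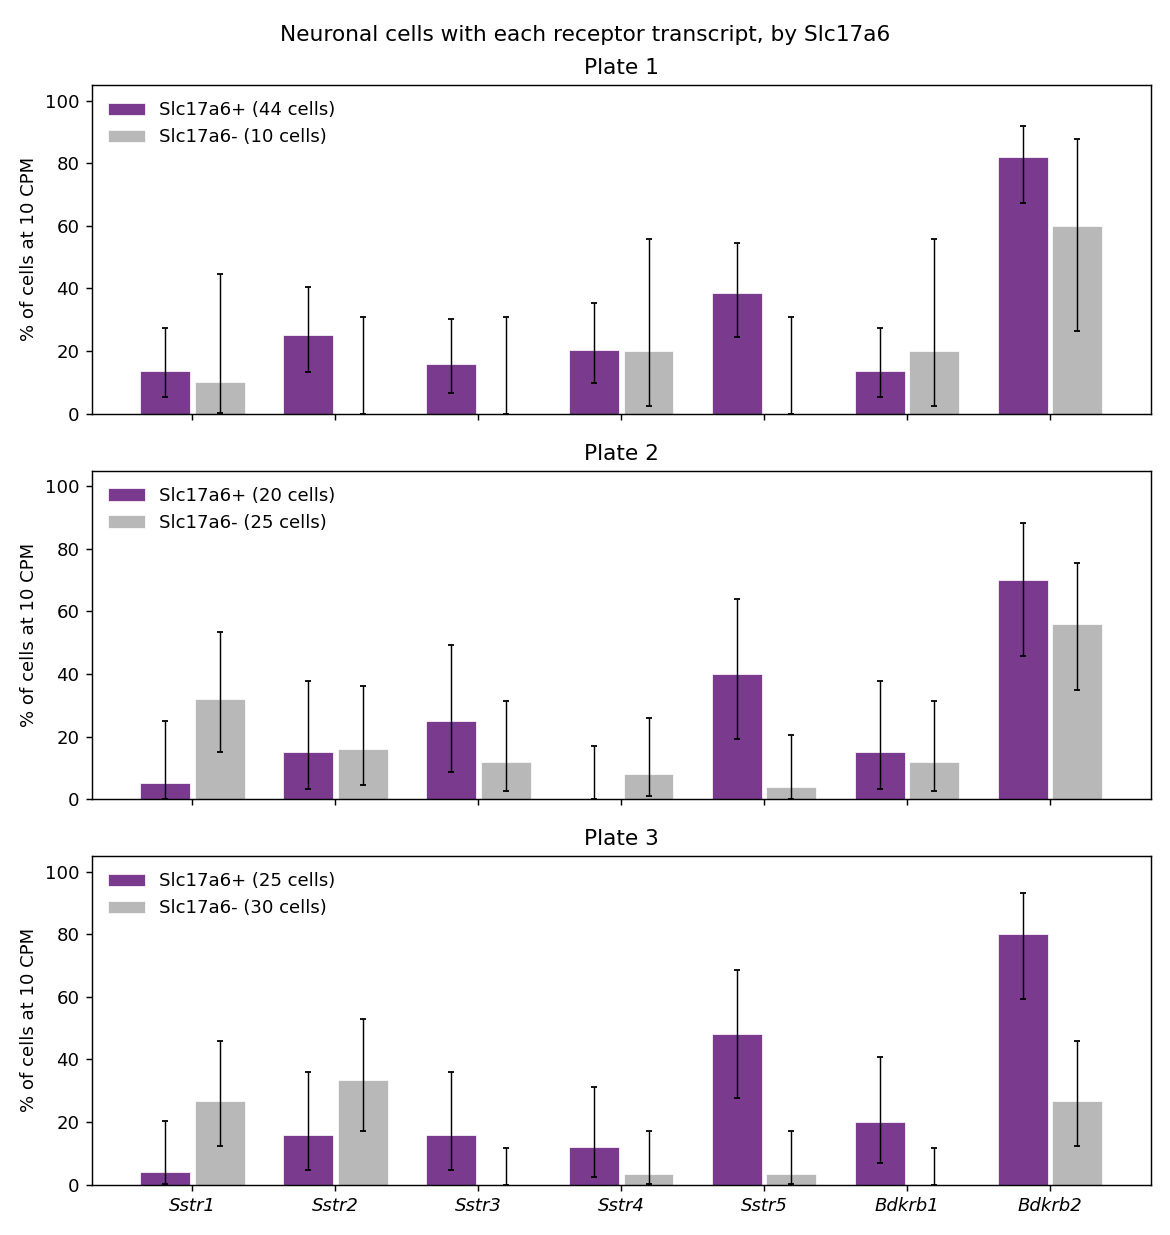
Share of neuronal cells with each receptor at 10 CPM, in %, by plate from top to bottom, for Slc17a6-positive cells (purple, left) and Slc17a6-negative cells (grey, right), with exact 95% intervals for counting error. Sstr5 reached 17 of 44, 8 of 20 and 12 of 25 positive cells and no more than 1 negative cell on any plate, whereas Sstr1 was in 8 negative cells each on plates 2 and 3.

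Chat, the enzyme that makes acetylcholine, marks excitatory motor neurons and most interneurons of the gut, and Nos1 marks inhibitory motor neurons. Of the neuronal cells, 56 carried Chat only, 50 carried both, 30 carried Nos1 only and 18 carried neither. Cells with Chat only were compared with cells with Nos1 only on plates 2 and 3, since plate 1 held 3 cells with Nos1 only. Of 12442 genes tested, 4.44% were called higher and 2.44% lower in cells with Chat only. The filter was passed by 3 receptors, Sstr1, Sstr2 and Bdkrb2, and none of them was called.

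Sstr3 was seen in Chat-positive cells alone: it was detected in 10 of 56 cells with Chat only (17.9%), 9 of 50 with both (18%) and 0 of 30 with Nos1 only, and the 48 neuronal cells without Chat held no Sstr3 read. Cells with Chat only had at least 311-fold more Sstr3 than cells with Nos1 only on plate 2 and at least 66.1-fold more on plate 3. These bounds too count reads and not cells. Without cell 50 of plate 2 and cell 5 of plate 3 these bounds were 188.5-fold and 33.4-fold. Sstr4 was detected in 8 of 56 cells with Chat only (14.3%), 8 of 50 with both (16%) and 1 of 30 with Nos1 only (3.33%), a plate 1 cell at 34.4 CPM. On plates 2 and 3 its log2 ratios of Chat only to Nos1 only were 2.11 and 1.78. Both receptors were under the filter of 10 cells, and both passed the fold on both plates when no filter was set, as did Sstr5. With no filter, 2.87% of all genes were called higher. With the filter, Sstr3 was called higher where classes were set by a 4-fold ratio of Chat to Nos1. In that setting 2.85% of all tested genes were called higher.

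Sstr5 was found most often in cells that carried both markers: in 11 of 56 cells with Chat only (19.6%, interval 10.2 to 32.4%), 26 of 50 with both (52%, interval 37.4 to 66.3%) and 2 of 30 with Nos1 only (6.67%, interval 0.818 to 22.1%). By plate, cells with both markers held Sstr5 in 12 of 22, 4 of 10 and 10 of 18 cases. The log2 ratios of Chat only to Nos1 only were 2.26 and 1.49 on plates 2 and 3, and 1.68 and 0.56 without the highest cell. Sstr5 was called higher after thinning to 450000 reads, and where detection also needed 1% of the gene's highest count on the plate. The shares of all tested genes called higher there were 4.55% and 5.94%. Slc17a6 was itself detected in 40 of 56 cells with Chat only, 43 of 50 with both and 3 of 30 with Nos1 only. Within Chat-positive cells, Sstr5 was detected in 36 of 83 with Slc17a6 (43.4%) and 1 of 23 without it (4.35%). Within Slc17a6-positive cells it was detected in 11 of 40 with Chat only (27.5%) and 25 of 43 with both (58.1%).

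Bdkrb2 was detected in 43 of 56 cells with Chat only (76.8%, interval 63.6 to 87.02%), 39 of 50 with both (78%, interval 64.0 to 88.5%) and 13 of 30 with Nos1 only (43.3%, interval 25.5 to 62.6%). Its log2 ratios of Chat only to Nos1 only were 0.71 on plate 2 and 1.88 on plate 3. Bdkrb2 was called higher in cells with Chat only without plate 2 and after thinning to 450000 reads. It was also called where classes were set by a 4-fold ratio of Chat to Nos1. The same held where detection also needed 1% of the gene's highest count on the plate. The shares of all tested genes called higher in these settings were 8.84%, 4.55%, 2.85% and 5.94%. Within Chat-positive cells, Bdkrb2 was detected in 69 of 83 with Slc17a6 (83.1%) and 13 of 23 without it (56.5%). Bdkrb1 was detected in 11 of 56 cells with Chat only (19.6%), 6 of 50 with both (12%) and 2 of 30 with Nos1 only (6.67%).

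Sstr1 had its highest share in cells with Nos1 only: it was detected in 7 of 56 cells with Chat only (12.5%, interval 5.18 to 24.1%), 7 of 50 with both (14%) and 11 of 30 with Nos1 only (36.7%, interval 19.9 to 56.1%). Its log2 ratios of Chat only to Nos1 only were 0.74 on plate 2 and -3.81 on plate 3, and plate 2 stood at -0.91 without cell 30, a Chat-only cell with 298 CPM. Sstr2 shares lay close together, with 13 of 56 cells with Chat only (23.2%), 13 of 50 with both (26%) and 6 of 30 with Nos1 only (20%), and its log2 ratios were 1.18 and -0.98. Median reads were 4181978 in cells with Chat only and 6261657 in cells with Nos1 only. Among the 18 cells with neither marker, whose median was 1251208 reads, Bdkrb2 was detected in 3 and no other receptor was detected.

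**Figure D4:**
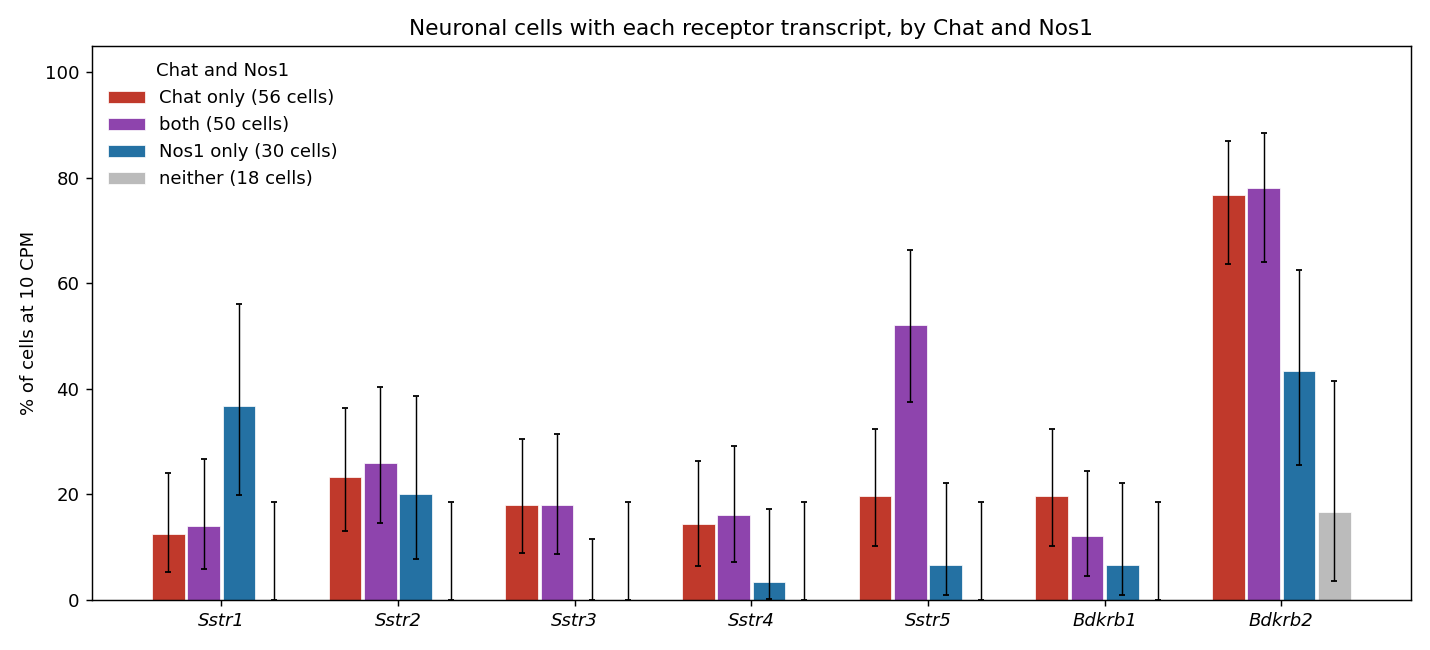
Share of neuronal cells with each receptor at 10 CPM, in %, in cells with Chat only (red), both markers (purple), Nos1 only (blue) and neither (grey), all plates pooled, with exact 95% intervals for counting error. Sstr5 stands out in cells with both markers at 52%, Sstr1 in cells with Nos1 only at 36.7%, and Bdkrb2 is near 77% in both Chat-positive classes and at 43.3% in cells with Nos1 only.

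Many cells held several of these receptors. Of the neuronal cells, 76.6% carried at least 1 receptor: 34 cells carried 1, 47 carried 2, 25 carried 3 and 12 carried 4 or more. Of the 85 cells with a somatostatin receptor, 37 (43.5%) carried more than 1 of them, with 30 cells at 2, 4 cells at 3 and 3 cells at 4. The most in any cell was 6. Cell 30 of plate 2 had Sstr1 at 298 CPM, Sstr2 at 23.0 CPM, Sstr3 at 19.8 CPM, Sstr4 at 24.5 CPM, Bdkrb1 at 14.4 CPM and Bdkrb2 at 23.3 CPM; it carried Chat only and no list of another cell type. Cell 16 of plate 1, which carried both Chat and Nos1, had the same 6 receptors, with Bdkrb2 at 253 CPM and the rest between 10.7 and 29.0 CPM.

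Every neuronal cell with Bdkrb1 also had Bdkrb2: 19 of 19, or 19.4% of the 98 Bdkrb2 cells. Sstr3 cells had Bdkrb2 in 18 of 19 cases (94.7%), Sstr5 cells in 33 of 39 (84.6%) and Sstr1 cells in 19 of 25 (76%), where 63.6% of all neuronal cells had it. Sstr2 was present in 10 of the 19 Sstr3 cells (52.6%) and in 10 of the 25 Sstr1 cells (40%), against 20.8% of all neuronal cells. Sstr1 and Sstr5 were found together in 3 cells, 1.95% of neuronal cells, where the product of their single shares is 4.11%. Of 21 pairs among the 7 receptors in at least 15 neuronal cells, 7 lay above the product of their shares on all 3 plates and 2 below it, Sstr1 with Sstr5 and Sstr5 with Bdkrb1. Deeper cells detect more transcripts, and the part of depth in these pairs was not tested.

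**Figure D5:**
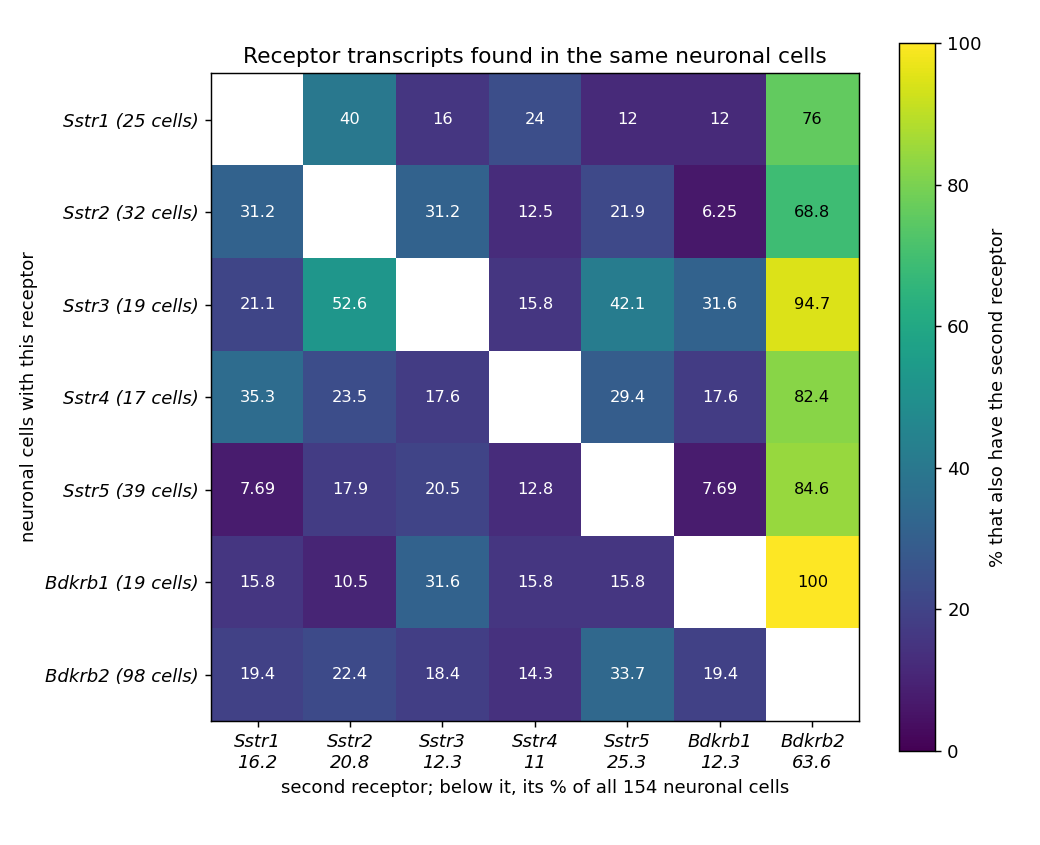
Percent of the neuronal cells with the receptor of each line that also have the receptor of each column at 10 CPM, all plates pooled; the share of all neuronal cells is printed under each column. The Bdkrb2 column is at 100% for Bdkrb1 cells and 94.7% for Sstr3 cells beside 63.6% of all neuronal cells, and the Sstr1 column is at 7.69% for Sstr5 cells beside 16.2% of all neuronal cells.

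By plate, over all cells, the share with Bdkrb2 was 69.7%, 45.5% and 38.9% on plates 1, 2 and 3, with Sstr5 25.8%, 13.6% and 18.1%, and with Sstr4 16.7%, 3.03% and 5.56%. Sstr2 had mean levels of 7.29, 10.9 and 53.9 CPM over all cells of the 3 plates. Plate 1 also had the largest part of Slc17a6-positive cells, 44 of its 54 neuronal cells. The plates differ in both and each is 1 sample, so plate and cell mix cannot be told apart.

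The genes whose levels ran most like a receptor's were read from Spearman correlations within each plate over the neuronal cells, averaged over the 3 plates, among 11764 genes; all values share the cells, their depth and the cell classes. For Sstr5 the most alike were Kcng1, a modifier subunit of potassium channels, at 0.66, Klhl1 at 0.65, Islr2 at 0.63, Rab27b, a small GTPase of vesicle release, at 0.61, and Cntn5, a neuronal adhesion protein, at 0.61. Of the 39 Sstr5 cells, 36 had Kcng1 and 39 had Rab27b, beside 48.1% and 69.5% of all neuronal cells. Both genes were picked for their likeness to Sstr5 in these same cells. For Bdkrb2 they were Sgpp2, a phosphatase of sphingosine phosphate, at 0.68, Kcnk10, a leak potassium channel, at 0.66, Slc39a6, a zinc transporter, at 0.63, Kif5c, a kinesin motor, at 0.61, and Mfap3l at 0.61. For Sstr1 the values were lower, 0.45 for Neurl1a, 0.40 for Pid1, 0.39 for Pde1c, a cyclic nucleotide phosphodiesterase, 0.39 for Rgmb and 0.37 for Herc3. For Sstr2 they were 0.44 for Elk1, 0.41 for Cox15, 0.39 for Hs3st5, 0.38 for Mterf1a and 0.38 for Dleu7.

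Promoter sequence is shown for Sstr2 and Bdkrb2, the somatostatin and bradykinin receptor with the highest mean level in neuronal cells, as the 250 bases before the RefSeq start on GRCm38.p6; RefSeq promoters were at hand for 7 of the 10 receptors. Sstr2 spans chr11:113619342-113626028 on the plus strand and Bdkrb2 spans chr12:105563226-105595237 on the plus strand, 12 being also the chromosome of Bdkrb1 and Sstr1; the exons of the 10 receptors overlap no other gene in GENCODE M21. The Sstr2 stretch is chr11:113619077-113619326 and the Bdkrb2 stretch is chr12:105562922-105563171, both read on the plus strand. Both strands were searched for the TATA box TATAAA, for the GC box GGGCGG and for the cyclic AMP response element TGACGTCA, all shown in capitals, and for the E-box CANNTG, which is not.
Sstr2: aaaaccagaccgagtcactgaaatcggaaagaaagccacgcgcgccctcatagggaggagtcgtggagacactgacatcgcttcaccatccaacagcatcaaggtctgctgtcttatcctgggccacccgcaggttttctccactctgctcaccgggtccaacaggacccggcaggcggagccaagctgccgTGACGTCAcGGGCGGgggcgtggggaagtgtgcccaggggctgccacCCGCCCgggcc
Bdkrb2: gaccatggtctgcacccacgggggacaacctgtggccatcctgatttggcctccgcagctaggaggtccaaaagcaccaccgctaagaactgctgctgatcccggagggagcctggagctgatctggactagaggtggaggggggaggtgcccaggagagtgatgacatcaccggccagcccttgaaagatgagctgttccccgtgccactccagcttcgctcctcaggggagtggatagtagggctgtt
The Sstr2 stretch holds TGACGTCA starting 58 bases before the start site, a motif found in 1.55% of 32851 mouse promoters of this length. It also holds GGGCGG at 49 and 11 bases, found in 32.7% of promoters, and none of these matches overlap. It has 18 CpG pairs, against 7 in the Bdkrb2 stretch and a median of 6 over all promoters. The Bdkrb2 stretch holds none of the 4 motifs, where TATAAA is found in 12.4% and CANNTG in 66.2% of promoters. Neither stretch was measured here, so the matches are a description of the letters only.

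Of the ligands, Tac1 and Sst were measured in enough cells to compare. Tac1, the precursor of substance P and neurokinin A, was detected in 48 neuronal cells (31.2%) and 3 of 50 other cells (6%), with mean levels of 449 and 2.86 CPM. Tac1 was detected in 30 of 56 Chat-only cells (53.6%), 7 of 50 with both markers, 5 of 30 with Nos1 only and 6 of 18 with neither. Sst, the somatostatin precursor, was detected in 13 neuronal cells (8.44%) and 1 of 50 other cells (2%). Both were called higher in neuronal cells. The Sst call rested on single cells: the highest, cell 22 of plate 2, held 7449 CPM, and once each plate's highest cell was left out the log2 ratios were 0.11, 0.38 and 2.79 on plates 1, 2 and 3, which ended the call. On plate 2, reads of Sst were present in 44 of 45 neuronal and 20 of 21 other cells, against 7 of 54 and 12 of 55 neuronal cells on plates 1 and 3. Cort was detected in 1 neuronal cell, Tac2 and Tac4 in 1 neuronal cell each and in 1 and 2 other cells, and Kng1 and Kng2, the kininogens from which bradykinin is cut, in none of the cells. The receptor for which Tac1 and its absence differed most in share was Sstr5: 5 of 48 neuronal cells with Tac1 had it (10.4%, interval 3.47 to 22.7%) and 34 of 106 without Tac1 (32.1%, interval 23.3 to 41.8%), and its Spearman correlation with Tac1 was -0.50, -0.23 and -0.19 on plates 1, 2 and 3.

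Downstream components were read over all neuronal cells and not in receptor-positive cells apart. The genes named by rule were those of each list detected in most neuronal cells, so their high shares follow from that choice. Other listed genes were rare, such as Plcb2 in 2 and Kcnj9 in 5 of all cells, both named after their values were seen. Of the Gi/o list, through which somatostatin receptors act, 4 of 8 tested genes were called higher in neuronal cells and none lower, beside 17.2% and 4.86% of all genes tested. Gnao1, the Go alpha subunit, was called and was detected in 95.5% of neuronal and 30% of other cells. Gnai2 and Gnai3, inhibitory alpha subunits, were detected in 97.4% and 89.6% of neuronal cells and 98% and 86% of other cells, and were not called. The other 3 that were called, Gnaz and the potassium channel subunits Kcnj3 and Kcnj6, are named after their values were seen; Kcnj3 was detected in 66 neuronal cells and Kcnj6 in 45, and both in 0 of 50 other cells. Kcnj3 and Kcnj6 therefore passed the filter through neuronal cells alone, and the list's median log2 ratio of 3.40 lies among the channel subunits; the median over all tested genes was 0.40. Of the Gq/11 list, through which tachykinin and bradykinin receptors act, 2 of 12 tested genes were called higher in neuronal cells, a share near the 17.2% of all tested genes. Prkce, a protein kinase C, was detected in 85.1% of neuronal and 24% of other cells, and Gna14, a Gq-class alpha subunit, in 45.5% and 2%. Gna11 and Gnaq, the main Gq-class alpha subunits, were detected in 94.8% and 94.2% of neuronal cells and 80% and 74% of other cells and were not called, and the list median was 0.33.

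Gna14, named after its values were seen, was the gene of these lists that was called by Slc17a6: it was detected in 60 of 89 Slc17a6-positive cells (67.4%) and 10 of 65 negative cells (15.4%), with a mean log2 ratio of 2.91 over the plates. No other gene of the Gq/11, Gi/o, desensitisation, ligand or enzyme lists was called there. In the desensitisation list 1 of 7 genes was called higher in neuronal cells, also near the 17.2% of all genes. That gene was Grk3, a receptor kinase detected in 89.6% of neuronal and 4% of other cells. Grk2 was detected in 88.96% and 62% of these cells and the arrestin Arrb2 in 85.1% and 30%, with no call. Of the peptide-cleaving enzymes 0 of 9 tested genes were called in either direction, where 17.2% and 4.86% of all genes were called higher and lower, and the list median was -0.02. Ece1 and Ece2, endothelin-converting enzymes that also cut bradykinin and somatostatin, were detected in 89.6% and 77.9% of neuronal cells and 64% and 58% of other cells. Cpd, a carboxypeptidase, was detected in 68.2% of neuronal and 46% of other cells.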

How the data were processed

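Single cells were sequenced from polyA RNA with a plate kit that barcodes wells and plates and has no molecular identifiers, per the labels' protocols. The deposited values are log2(RPKM + 1) by the authors, where the scale was worked out from the numbers themselves. The build was mm10, per the submitters' processing notes; the aligner, the read counter and its handling of strand were not given in the sources used here. Undoing the log and multiplying by GENCODE M21 exon length (31348 genes), or by the smallest length giving whole reads throughout (6287 genes, Bdkrb2 and Sstr3 among them), gave whole reads for 100% of 2375655 values above 0, within 1e-04; 11857 genes had no reads. The design assumed raw counts, and the recovered reads took their place as CPM. No deposited column of the series table was left out (0 not used). The steps were checked on simulated data. No doublet caller was run; cells with RNA of another type were left out in an alternative.

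Detection meant 10 CPM or more; a list was carried where 50% of its genes were detected. Classes were compared by log2 ratios of mean CPM within plates, with calls as defined above, over genes at 10 CPM in at least 10 of the cells compared. Classes rest on transcripts other than the receptors. Named genes were the 10 receptors, the class markers, every ligand, the 3 genes of each pathway list detected in most neuronal cells, and the 5 genes most alike in pattern to each receptor in at least 20 neuronal cells. The receptors and all lists were chosen with earlier results of these data known. Alternatives changed the detection threshold, depth, pseudocount, filter, plates, cells and class definitions. Python 3.11.15 was used with numpy 2.4.6, scipy 1.17.1, pandas 2.3.3 and matplotlib 3.10.9.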

Additional observations from a re-analysis of the deposited data

How the results depend on the processing

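No receptor that was called turned the sign of its ratio averaged over plates in any alternative. Leaving out the highest cell turned the sign of 14 single plate ratios, none of a receptor called in that comparison. Of the counts, 77 stayed within 1.5 times of the reported one and 28 did not. For neuronal against other cells, 6 receptors were called as reported, 3 at 50 CPM, 1 with a pseudocount of 10 (Bdkrb2) and 2 by the difference of mean log2 values (Sstr5 and Bdkrb2). For Slc17a6, 1 was called as reported; 3 were called with any read, without plate 1, without plate 2 and without the highest cell, 2 by the difference of mean log2 values and 4 in cells with no list of another type. For Chat only against Nos1 only, 0 were called as reported, 1 with any read (Sstr1, lower) and without plate 2, 2 with the added 1% rule on the highest count of a plate, after thinning and with a 4-fold class ratio, and 3 with no filter. By smooth muscle RNA in neuronal cells, 1 was called as reported, 4 with any read, 3 with the 1% rule and without plate 3, 2 without plate 1, and 0 with a pseudocount of 10 and by mean log2 values; in other cells 2 were called with no filter and 0 otherwise. By smooth muscle RNA, any read, the 1% rule and 50 CPM left 1 plate each. There 21.0%, 6.08% and 3.85% of all tested genes were called higher, and 11.8%, 9.90% and 24.1% lower. At 50 CPM the 1 receptor called was Bdkrb2, which was lower, and Sstr4 was not called. By neuronal status, 8.23% were called higher with a pseudocount of 10 and 17.1% by mean log2 values. By Slc17a6, 3.12% were called higher with any read and 3.32% by mean log2 values. Between Chat only and Nos1 only, 7.71% were called lower with any read. Pairs above their product on every plate numbered 7 as reported, 13 with any read, 1 at 50 CPM, 3 without plate 1 and 3 without plate 2. Receptors in at least 5% of all cells numbered 7, and 4 at 50 CPM; pathway genes in at least 50% of neuronal cells numbered 23, and 12 at 50 CPM. With any read every cell carried the neuronal list, which gave no comparison with other cells and made the remaining ones run over all cells. Where no value bears on a change, the cause was not tested. What the number of cells and reads can show is given by the intervals and by the limits for a count of 0. No paired analysis was possible because cell numbers on different plates are wells and pair nothing, and no result comes from a test.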
